A study of Rattus norvegicus with 6 samples.

Results

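The 10 genes described here encode inducible brakes on the mitogen-activated protein kinase (MAPK) cascades: the dual-specificity phosphatases Dusp1, Dusp4, Dusp5, Dusp6, Dusp10 and Dusp16, the Sprouty proteins Spry1, Spry2 and Spry4, and the Sprouty-related protein Spred1. They were taken by symbol from a deposited table of 30957 Ensembl rat genes, and each symbol matched 1 row. RNA-seq was carried out on 6 sciatic nerves of Sprague Dawley rats, 3 crushed nerves and 3 intact nerves from the opposite side of the body, and the comparison asked which transcripts changed after the crush. The methods describe adult male animals and a collection at 4 days postinjury (dpi), with only the proximal stumps taken from the crushed nerves. The sample labels give no time, age or sex. The labels name no transgene and no agent given to the animals. They also do not say whether nerves with the same number came from the same rat. The p-values rest on these 6 samples only, and whether all 6 are independent is unknown. Levels are given as normalized CPM, read counts scaled to the library size with TMM factors.

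The total count on genes was between 24844371 and 27139360 per nerve. Each nerve was kept as a separate sample, since nerves of 1 group differed by more than counting error. Several defining markers of the labelled tissue were absent. Of 11 Schwann cell markers, 5 passed the expression filter, and Mbp, Sox10, S100b and Mag had at most 3 counts in every nerve. The leukocyte markers Ptprc, Adgre1, Cd163 and C1qa and the fibroblast markers Col1a2, Dcn and Lum had 0 counts in all 6 nerves. The proliferation marker Mki67 was abundant, at a mean of 1572 CPM in intact and 1452 CPM in crushed nerves. The words intact nerve and crushed nerve therefore follow the labels only. In such bulk samples fewer cells of a type and less RNA per cell cannot be told apart.

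MAPK cascades carry signals from growth factor and cytokine receptors to the nucleus. RAS activates RAF, MEK and then the kinase ERK, while parallel branches end in JNK and p38. Active ERK, JNK and p38 induce genes whose products switch the same kinases off, so that a signal limits its own length. DUSP proteins of the MAPK phosphatase class remove phosphate from both the threonine and the tyrosine of the activation loop. Sprouty and Spred proteins act further up, between the receptor and RAF. In injured peripheral nerve, ERK signalling is known for its part in the change of Schwann cells to a repair state.

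Dusp4 and Dusp1, which like Dusp5 encode nuclear phosphatases, were lower in crushed nerves. None of the other members, Dusp5 included, passed the test in either direction. Of the 10 genes, 9 passed the expression filter and were tested with edgeR's quasi-likelihood test together with all other genes. At an adjusted p under 0.05, 2 of the 9 were lower and 0 were higher, while 3.12% of the 12393 genes tested were called, 1.65% lower and 1.47% higher. At an unadjusted p under 0.05 there were 5 members, 4 lower and 1 higher, against 16.2% of all genes tested. The values of the 3 crushed nerves did not overlap those of the 3 intact nerves in 4 members, namely Dusp1, Dusp4, Dusp10 and Spry4, against 23.0% of all genes tested. The limits of the study's methods, a log2 fold change beyond 1 in either direction with p under 0.001, were met by 0 members with edgeR, DESeq2 or limma, and by 0.282% of all genes tested with edgeR. The median log2 fold change was -0.10 over the 9 members and -0.0017 over all genes tested. The members, and the lists used further on, were chosen with earlier results of these data known. Their counts beside the shares of all genes are therefore a description.

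**Figure D1:**
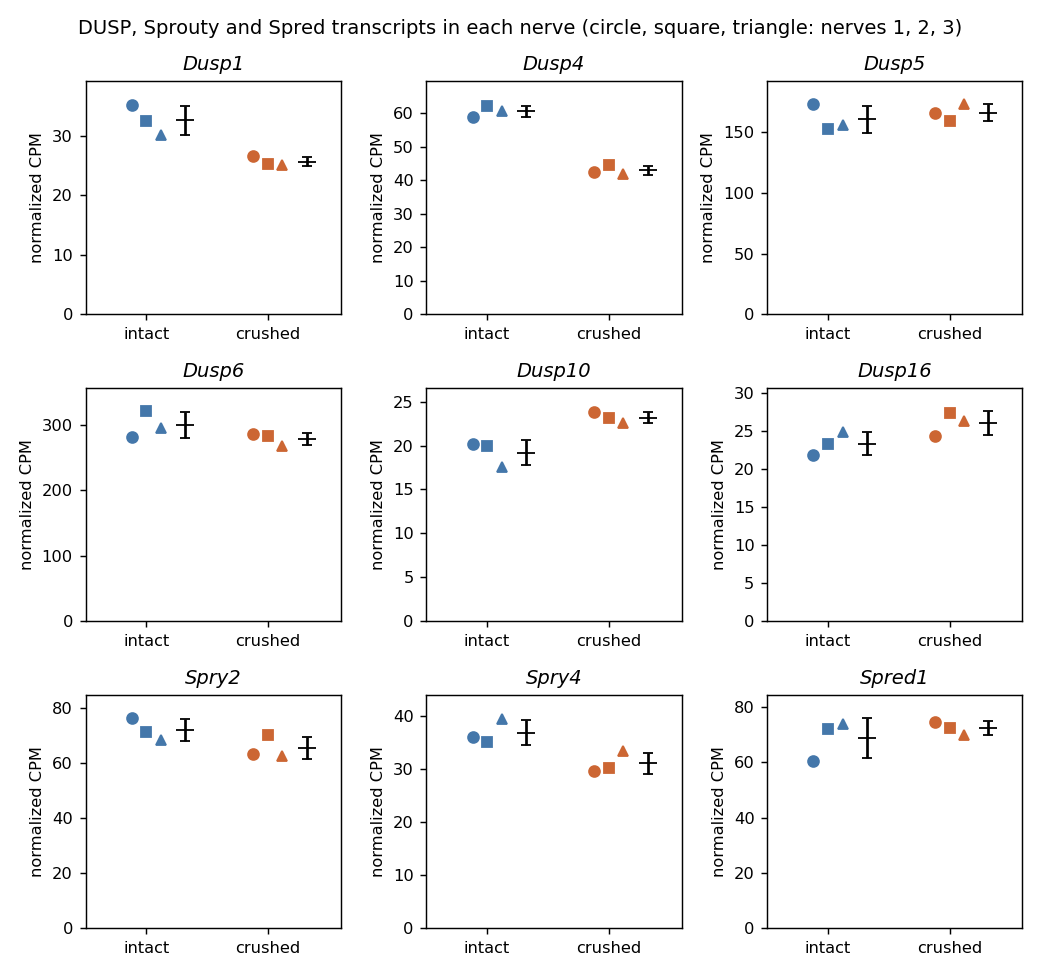
Normalized CPM (vertical axes, starting at 0) of the 9 tested members in each intact (blue) and crushed (orange) nerve, with circles, squares and triangles for nerves 1, 2 and 3. The black bars give the mean and SD of the 3 nerves. The 3 crushed nerves lie between 41.9 and 44.6 CPM for Dusp4, below the intact nerves at 58.8 to 62.2 CPM, whereas the groups overlap for Dusp5, Dusp6, Dusp16, Spry2 and Spred1.

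Dusp4 encodes a nuclear phosphatase that acts on ERK and JNK. In the deposited table, whose genome build is Rnor_6.0 according to the submitters' processing notes, it lies on chromosome 16 from 61078175 to 61091169. It received 1488, 1640 and 1507 reads in intact nerves 1, 2 and 3. In the crushed nerves it received 1160, 1211 and 1050 reads. As normalized CPM the intact nerves had 58.8, 62.2 and 60.8 CPM and the crushed nerves 42.5, 44.6 and 41.9 CPM. The lowest intact nerve was thus well above the highest crushed nerve. The mean fell from 60.6 ± 1.69 to 43.0 ± 1.42 CPM (SD, n = 3 nerves each). The fold change was 0.710 (95% interval 0.655 to 0.768), or -0.49 on the log2 scale with a standard error of 0.0520, and the adjusted p = 0.000369. By p, Dusp4 was number 51 of the 12393 genes tested. It was called under all 10 alternatives, and its log2 fold change lay between -0.52 and -0.47 in them.

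Dusp1 encodes a nuclear phosphatase of p38, JNK and ERK, and is a textbook immediate early gene. It lies on chromosome 10 from 16970626 to 16973418. Intact nerves 1, 2 and 3 had 35.1, 32.5 and 30.1 CPM, from 889, 858 and 746 reads. Crushed nerves 1, 2 and 3 had 26.6, 25.3 and 25.1 CPM, from 727, 687 and 629 reads. The crushed nerves were close together and all below the lowest intact nerve. The mean fell from 32.6 ± 2.51 to 25.7 ± 0.824 CPM (SD, n = 3 nerves each), a fold change of 0.788 (95% interval 0.707 to 0.878) with a log2 value of -0.34, a standard error of 0.0706 and an adjusted p = 0.0263 in edgeR's test. This call was less stable than that of Dusp4. It was lost with limma on log2(FPKM + 0.1), with an adjusted p = 0.0538, and when intact nerve 2 (adjusted p = 0.0811) or crushed nerve 1 (0.0794), 2 (0.113) or 3 (0.114) was left out. Over all 10 alternatives the adjusted p of Dusp1 lay between 0.00371 and 0.114, and its log2 fold change between -0.39 and -0.28.

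A cAMP response element (CRE), the palindrome TGACGTCA bound by CREB and related factors, was found in the promoter window of Dusp1. It begins 124 bases before the start of the gene on chr10:17184718-17184747 (GRCr8, plus strand), and is shown because CREB is a textbook regulator of this gene. The sequence is from RefSeq, with the element in capitals.
Dusp1: ggcagggcgggTGACGTCAccacccggtca
Windows of 250 bases before to 50 bases after the start were on hand for 9 of the 10 genes, with 10 windows because Spry2 has more than 1, and not for Dusp4. Of 33469 such windows of the rat genome, 1.83% hold a CRE on either strand. Dusp1 was the only member with it. The AP-1 motif TGANTCA, which stands in 7.33% of all windows, and the NF-κB site, in 7.51%, were found in 0 members.

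Dusp5 and Dusp6 encode phosphatases with a strong preference for ERK, Dusp5 in the nucleus and Dusp6 in the cytoplasm. These were the most abundant members, and neither passed the test. Dusp5, on chromosome 1 from 274245184 to 274258595, had 174, 153 and 156 CPM in intact nerves 1, 2 and 3, against 166, 160 and 173 CPM in crushed nerves 1, 2 and 3. The highest value of all was in an intact nerve, and the groups overlapped. The log2 fold change was 0.05 (95% interval -0.07 to 0.17, adjusted p = 0.721). Dusp6, on chromosome 7 from 41475163 to 41479392, had 282, 322 and 295 CPM in intact and 286, 283 and 269 CPM in crushed nerves. Crushed nerves 1 and 2 lay just above intact nerve 1, so that the groups overlapped here too. Its fold change was 0.930 (95% interval 0.859 to 1.01, adjusted p = 0.362).

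Dusp5 is a target of serum response factor, which binds the CArG box and is switched on by ERK through its partner Elk1. Its promoter window holds 2 such boxes side by side, beginning 82 and 72 bases before the start, on chr1:262543687-262543716 (GRCr8, plus strand). They are shown in capitals. Whether they bear on the level of Dusp5 in these nerves was not tested.
Dusp5: aacacCCATATTTGGCCTTATATGGgcact
A CArG box stands in 1.64% of all windows, and Dusp5 was the only member with it.

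**Figure D2:**
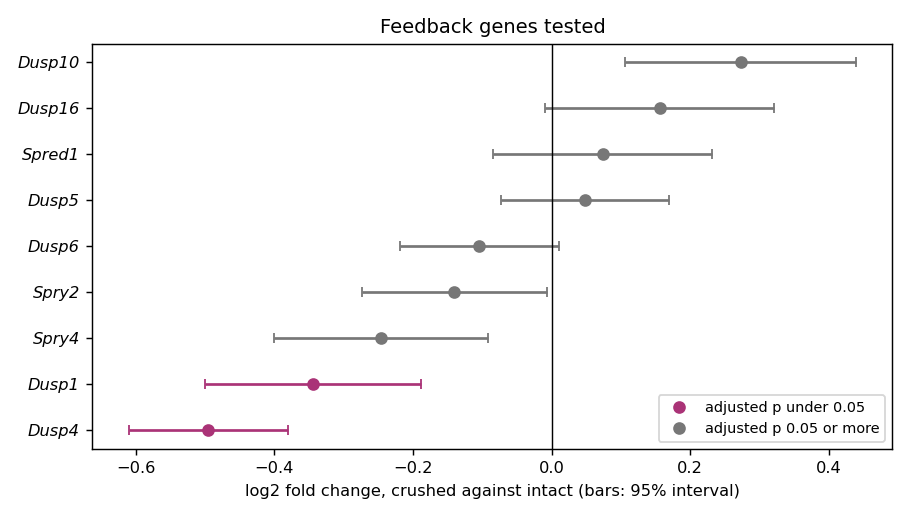
Log2 fold change of crushed against intact nerves (horizontal axis) for the 9 tested members, with the 95% interval of edgeR's test as bars, not adjusted for the number of genes. Dusp4 at -0.49 and Dusp1 at -0.34 (purple) had an adjusted p under 0.05, while the other 7 (grey) lie between -0.25 for Spry4 and 0.27 for Dusp10.

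Dusp10 and Dusp16 encode phosphatases that act on JNK and p38 rather than on ERK. Dusp10 lies on chromosome 13 from 104284660 to 104321455. It had 20.1, 19.9 and 17.5 CPM in intact nerves 1, 2 and 3, against 23.8, 23.2 and 22.5 CPM in crushed nerves 1, 2 and 3. Each crushed nerve thus exceeded the highest intact nerve, in the direction opposite to Dusp1 and Dusp4. Over all genes, however, the difference did not pass the test, with a fold change of 1.21 (95% interval 1.08 to 1.36), an unadjusted p = 0.00425 in edgeR's test across all genes and an adjusted p = 0.0918. Under the alternatives its adjusted p lay between 0.0667 and 0.288. Dusp16, on chromosome 4 from 168472412 to 168517177, had between 21.9 and 24.9 CPM in intact and between 24.4 and 27.5 CPM in crushed nerves. Its groups overlapped slightly, with a fold change of 1.11 (95% interval 0.994 to 1.25, adjusted p = 0.342).

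The ratio of the reads of 2 members within a nerve needs no scaling of the libraries. Dusp1 had 1.75, 1.63 and 1.72 reads per read of Dusp10 in intact nerves 1, 2 and 3, against 1.12, 1.09 and 1.12 in crushed nerves. Dusp4 had 0.209, 0.193 and 0.206 reads per read of Dusp6 in intact nerves and 0.149, 0.158 and 0.156 in crushed nerves. Both ratios were lower in each crushed nerve than in each intact nerve. These gene pairs were chosen after their values were seen, so the ratios are a description and were not tested.

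The Sprouty and Spred genes encode inhibitors of signalling from receptor tyrosine kinases to RAS and RAF, and none of them passed the test. Spry4, on chromosome 18 from 32594958 to 32609864, had 35.9, 35.0 and 39.4 CPM in intact nerves 1, 2 and 3, against 29.6, 30.2 and 33.2 CPM in crushed nerves 1, 2 and 3. The groups did not overlap, but crushed nerve 3 came close to intact nerve 2. The fold change of Spry4 was 0.843 (95% interval 0.757 to 0.938), with an adjusted p = 0.0992, and between 0.0686 and 0.331 under the alternatives. Spry2, on chromosome 15 from 90172975 to 90175802, had 76.2, 71.3 and 68.3 CPM in intact and 63.3, 69.9 and 62.6 CPM in crushed nerves. Crushed nerve 2 lay among the intact nerves. The fold change of Spry2 was 0.907 (95% interval 0.827 to 0.995, adjusted p = 0.280).

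Spred1, which brings neurofibromin to the membrane to switch RAS off, lies on chromosome 3 from 108795235 to 108857556. It had 60.5, 72.2 and 73.8 CPM in intact and 74.7, 72.6 and 69.9 CPM in crushed nerves. Apart from intact nerve 1, which was low, the nerves of both groups had similar values. The fold change of Spred1 was 1.05 (95% interval 0.943 to 1.17, adjusted p = 0.662), and its log2 value went from 0.07 to -0.0057 when intact nerve 1 was left out. Spry1, on chromosome 2 from 124400679 to 124405331, was the member that did not pass the filter. It had 5, 1 and 1 reads in intact nerves 1, 2 and 3, against 2, 1 and 0 in crushed nerves 1, 2 and 3. All but intact nerve 1 were at or under 3 counts, the smallest level taken here as different from 0. Scaled to library totals, the ratio of the summed reads, 3 against 7, was 0.417 with an exact 95% interval of 0.0696 to 1.83 for counting error only, and this depth did not allow a difference to be detected.

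The motif CCGGAA of ETS factors, several of which ERK phosphorylates, stands in 15.0% of all promoter windows on either strand. Among the members it was found in Dusp5, Spry2 and Spry4. The matches of the Sprouty genes are shown in capitals, since both genes are well known to be induced by ERK. They lie on chr15:89112080-89112109 and chr18:30702610-30702639 (GRCr8, both genes on the minus strand, written in the direction of the gene), with the motif on the opposite strand in Spry4.
Spry2: tccctgcctcctCCGGAAaggcgagggcgc
Spry4: ggttaagctcttTTCCGGccccccattcat

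The levels of the members were compared per length of transcript as FPKM, the authors' values scaled for transcript length and library size. In intact nerves Dusp6 was highest at 108.2 ± 7.46 FPKM (SD, n = 3), ahead of Dusp5 at 66.1 ± 4.41, Spred1 at 41.8 ± 4.56 and Spry2 at 39.5 ± 2.05. Dusp1 at 16.7 ± 1.23 and Dusp4 at 15.1 ± 0.458 followed. Dusp16 at 9.77 ± 0.655, Spry4 at 7.69 ± 0.510 and Dusp10 at 7.05 ± 0.509 were lower, and Spry1 had a mean of 0.0259 FPKM. The values of neighbours in this order overlapped between Spred1 and Spry2, between Dusp1 and Dusp4, and between Spry4 and Dusp10. In crushed nerves the first 5 places were the same. Dusp16 at 11.0 ± 0.660 FPKM and Dusp4 at 10.9 ± 0.348 then overlapped, and Dusp10 at 8.62 ± 0.249 stood above Spry4 at 6.56 ± 0.415 without overlap. Dusp6 was higher than 94.0% of the genes tested in intact nerves, and Dusp10 than 34.6%.

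**Figure D3:**
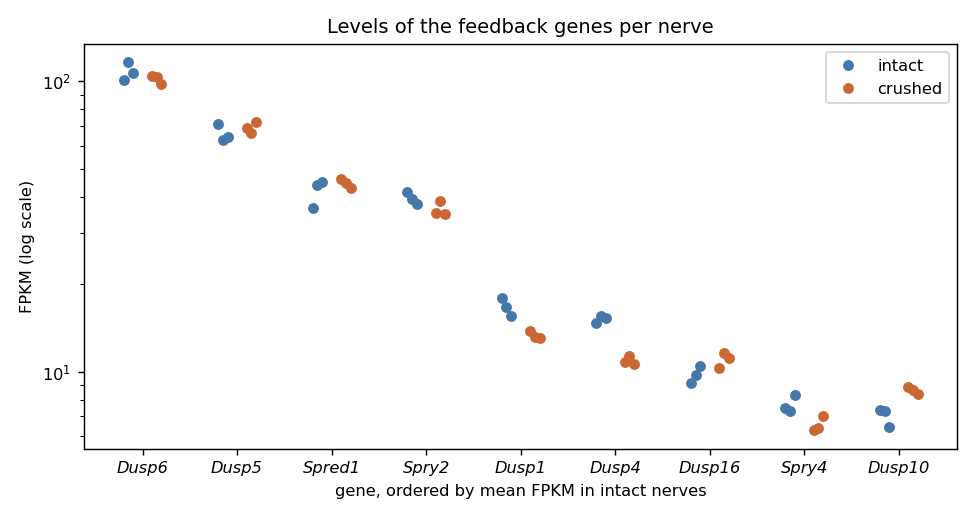
FPKM (log axis) of the 9 tested members in each intact (blue) and crushed (orange) nerve, ordered by the mean in intact nerves; Spry1, with at most 5 reads in a nerve, is not drawn. Dusp6 is highest, near 108.2 FPKM in intact nerves, and Dusp4 moves from 15.1 FPKM in intact to 10.9 FPKM in crushed nerves.

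Transcripts that ERK is known to induce moved in both directions. Of 19 such genes in a list, 17 were tested and 2 were not analysed here. Of those tested, 2 were higher and 2 lower in crushed nerves at an adjusted p under 0.05. Of all genes tested, 1.47% were higher and 1.65% lower. The median log2 fold change of the 17 was -0.13. Egr1, an immediate early transcription factor, fell from 85.5 ± 6.93 to 51.3 ± 1.58 CPM (SD, n = 3 nerves each), which is -0.74 on the log2 scale with a standard error of 0.0625 (adjusted p = 8.91e-05). The intact nerves had 2355, 2096 and 2083 reads of Egr1, against 1368, 1441 and 1270 in the crushed ones. Etv1, an ETS factor, had 900, 903 and 805 reads in intact nerves 1, 2 and 3, against 593, 628 and 531 in the crushed ones, and its log2 fold change was -0.63 with a standard error of 0.0659 (adjusted p = 0.000352). Both were called under all 10 alternatives, as was Dusp4.

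Junb, an AP-1 subunit, moved the other way, from 65.3 ± 3.53 to 109.5 ± 5.78 CPM, or 0.75 on the log2 scale with a standard error of 0.0566 (adjusted p = 3.73e-05). The intact nerves had 1707, 1772 and 1516 reads of Junb, against 3056, 3086 and 2578 in the crushed ones. Junb was called under all 10 alternatives. Ier3, a target of both ERK and NF-κB, was higher by a log2 value of 0.23 (adjusted p = 0.0442), but was called under only 4 of the 10 alternatives, with an adjusted p between 0.00611 and 0.178. The other 13 genes tested did not pass, among them the immediate early gene Fos, at 2.05 ± 0.162 CPM in intact and 1.87 ± 0.200 CPM in crushed nerves.

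**Figure D4:**
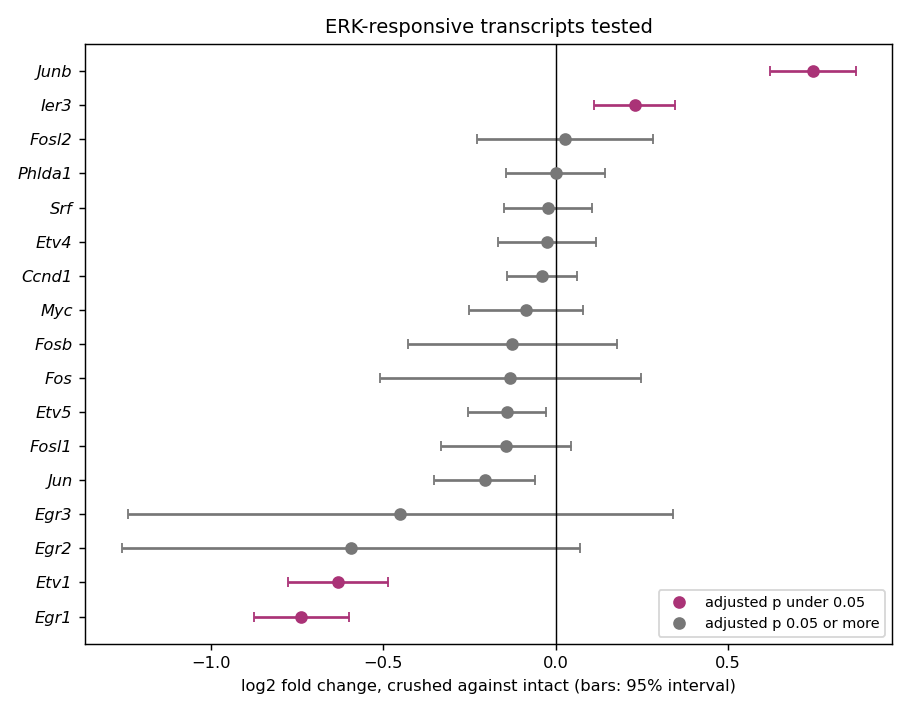
Log2 fold change of crushed against intact nerves (horizontal axis) for the 17 ERK-responsive transcripts tested, with the 95% interval of edgeR's test as bars. Egr1 at -0.74 and Etv1 at -0.63 were lower and Junb at 0.75 and Ier3 at 0.23 were higher at an adjusted p under 0.05 (purple), and the other 13 are grey.

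The counts of called cascade genes were near those over all genes tested, of which 3.12% had an adjusted p and 16.2% an unadjusted p under 0.05. The core ERK list held receptor, adaptor, RAS, RAF, MEK and ERK genes, and also a phosphatase gene, inhibitors of RAS and kinases downstream of ERK. Of its 24 genes, 23 were tested with edgeR, 3 had an unadjusted p under 0.05 and 0 passed an adjusted p under 0.05 in either direction. DESeq2 and limma called 0 of them as well. The median log2 fold change, over activators and inhibitors together, was 0.03. The smallest p was that of Map2k1, which encodes the ERK kinase MEK1, with a log2 fold change of 0.14 (adjusted p = 0.114), and it was called when intact nerve 1 was left out (adjusted p = 0.0373). Egfr, the epidermal growth factor receptor, was the gene not tested, with 0 reads in each nerve. Of 18 genes of the JNK and p38 branch 12 were tested, and 0 passed with edgeR, DESeq2 or limma, with 1 at an unadjusted p under 0.05. With so few genes, counts of 0 say nothing particular about either list. The 1 gene was Mapk11, a p38 kinase, with a log2 fold change of 0.27 (adjusted p = 0.240).

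Of 24 other phosphatase, Sprouty and feedback genes, 18 were tested, and 1 was lower and 0 were higher at an adjusted p under 0.05, beside 1.65% and 1.47% of all genes tested. The median log2 fold change was -0.05. The gene called was Ptpn7, a tyrosine phosphatase of ERK and p38 known from blood cells, with 20, 18 and 19 reads in intact nerves 1, 2 and 3, against 6, 8 and 1 in crushed nerves 1, 2 and 3. Its log2 fold change of -1.96 had an adjusted p = 0.0375 and rests on few reads. It was -0.94 with limma on log2(FPKM + 0.1), and between -2.44 and -1.52 with each nerve left out in turn. Ptpn7 was called under 1 of the 10 alternatives, and its adjusted p lay between 0.0469 and 0.122 in those that gave one.

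Among the markers of other cell types, the 4 that passed the test were lower in crushed nerves, while others had values above 0. Of 8 fibroblast markers 5 were tested, and 3 of them, Col1a1, Col3a1 and Pdgfrb, were lower in crushed nerves, with log2 fold changes of -0.69, -1.76 and -0.77, while 1.65% of all genes tested were lower. The value of Col3a1 rests on few reads, 22, 23 and 21 in intact nerves and 10, 3 and 7 in crushed nerves. Pdgfra of the same list had 46.6 ± 3.33 CPM in intact and 53.3 ± 2.78 CPM in crushed nerves (SD, n = 3 nerves each), a log2 difference of 0.19 that did not pass (adjusted p = 0.166). The summed level of the list was between 196.7 and 209.9 CPM of the library total in intact and between 170.8 and 189.7 CPM in crushed nerves. Most of this sum was Thy1, at 124.3 ± 4.61 normalized CPM in intact and 105.6 ± 7.76 in crushed nerves. Thy1 did not pass edgeR's test, with a log2 fold change of -0.23 (adjusted p = 0.0552). Of the Schwann cell markers tested, 1 of 5 was lower, namely Erbb3, a neuregulin receptor upstream of ERK, with a log2 fold change of -0.59 (adjusted p = 0.0222). The summed level of that list was between 67.3 and 72.7 CPM in intact and between 65.9 and 66.1 CPM in crushed nerves. Pmp22 and Prx, at means of 33.7 and 26.2 CPM in intact nerves, made up most of it. Their log2 fold changes were 0.03 and -0.20, and neither passed. None of the 3 leukocyte or 3 endothelial markers tested was called in edgeR's test, and their median log2 fold changes were 0.06 and 0.42. The endothelial median was that of Kdr, and Vwf at 0.49 was also above 0, both on at most 33 reads in a nerve. Tek, with the most reads of the 3, went the other way at -0.66 without passing edgeR's test (adjusted p = 0.0874). The leukocyte list summed to between 3.92 and 5.48 CPM in intact and between 4.46 and 6.33 CPM in crushed nerves. The endothelial list summed to between 4.60 and 5.44 CPM in intact and between 3.80 and 5.10 CPM in crushed nerves. The skeletal muscle list reached at most 0.264 CPM in any nerve. Proliferation markers summed to between 2843 and 3036 CPM in intact and between 2739 and 2872 CPM in crushed nerves, with 0 of 4 called. The part of these markers in the changes of Dusp4 and Dusp1 was not tested.

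The genes whose log2 CPM followed Dusp4 most closely over the 6 nerves were Igfbp4, Anxa6 and Snn, with Pearson coefficients of 0.9973, 0.9971 and 0.9945. Those closest to Dusp1 were Akr1b8, Slc14a1 and LOC691418, at 0.9973, 0.9965 and 0.9958. The value of Slc14a1 rests on few reads, at means of 0.666 CPM in intact and 0.289 CPM in crushed nerves. A coefficient of at least 0.95 was reached by 126 genes for Dusp4 and by 152 for Dusp1. All 6 points share the difference between the groups and the library scaling, so the coefficients are a description of these nerves.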

How the data were processed

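Total RNA of 6 sciatic nerves was sequenced. The authors deposited counts of reads per Ensembl gene, not normalized, and FPKM values per nerve. HISAT2 and StringTie 1.3.0 on Rnor_6.0 are named in the submitters' processing notes, while the counting program and the annotation release are not given in the sources used here. The methods describe rRNA removal and RNase R digestion, whereas the labels describe a column-based extraction. RNase R degrades linear RNA, so levels could differ from those of untreated RNA. All 12 value columns were assigned to a nerve through its title.

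Counts were filtered (filterByExpr), scaled (TMM) and tested with edgeR 4.0.16 (limma 3.58.1, R 4.3.3) over all 6 nerves without a block. Of the 30957 genes, 12393 were tested, with Benjamini-Hochberg adjustment over all of them. Standard errors and 95% intervals come from the quasi-likelihood statistic. With 3 nerves per group an exact two-sided permutation test cannot give a p under 0.1, which was its value for Dusp1, Dusp4, Dusp10 and Spry4. The named genes are all members, up to 3 genes in each direction of each list with the smallest p among those called (where none was called, the gene with the smallest p), and the 3 genes most correlated with each of the 2 members of smallest p. Fos, Egfr and the marker genes are named outside this rule. The members and lists were chosen with earlier results of these data known. Listed genes that are neither tested nor named were low or not analysed here, and a listed marker gene is not reported here. Alternatives were DESeq2 1.42.0, no filter, limma on log2(FPKM + 0.1), the replicate number as a block, and each nerve left out in turn. Promoter windows are from RefSeq (GRCr8), and motifs were searched on both strands. The calculation was tested on simulated data.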

Additional observations from a re-analysis of the deposited data

How the results depend on the processing

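The number of members past the study's limits was 0 under all 10 alternatives, and the number higher at an adjusted p under 0.05 was also 0. The number of members with an adjusted p under 0.05, all of them lower, was 2, and became 1 with limma on log2(FPKM + 0.1), where Dusp1 (log2 fold change -0.32) was lost. It was between 1 and 2 with each nerve left out in turn, with the log2 fold change of Dusp1 between -0.39 and -0.28. Such fits hold fewer nerves. The log2 fold change of Spred1 lay between -0.0057 and 0.13 in these fits, the only member to change sign. The genes of the 4 MAPK lists with an adjusted p under 0.05 numbered 5, and 3 with limma on FPKM, 3 with the replicate block and between 3 and 5 with each nerve left out. The replicate block (paired analysis) called the same 2 members. The labels do not say that the number marks a rat, so it was not taken as a pairing. Deviations from the group means in nerves of the same number had correlations of -0.00965, -0.00262 and 0.0709 across genes. These were not compared with nerves of different numbers, so they cannot decide whether nerves of the same number share a rat. Over all genes, 387 had an adjusted p under 0.05, 511 with DESeq2, 300 with the block, 242 with limma (156 higher and 86 lower, against 182 and 205), and between 179 and 392 with a nerve left out. What caused them to shift was not tested. Spry1, with at most 5 reads in a nerve, was not followed under the alternatives.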
